A study of Mus musculus with 9 samples.

Results

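Galectins are lectins that bind beta-galactosides, sugars carried at the ends and along the branches of glycans on cell surface proteins. They are made without a signal peptide, act inside the cell as well as outside it, and outside it cross-link glycoproteins on T cells and thymocytes. Galectin-1 works as a dimer of short chains, galectin-3 joins its domain to a long tail through which it assembles into larger complexes, and galectin-8 and galectin-9 carry tandem domains. In the thymus and in peripheral T cells galectins have been studied for their effects on T cell receptor signaling, adhesion and cell death. The 5 genes described here, of 24594 in the table, were Lgals1 (galectin-1), Lgals3 (galectin-3), Lgals8 (galectin-8), Lgals9 (galectin-9) and Lgals3bp, which encodes a secreted glycoprotein that galectins bind and is not itself a galectin. They were chosen by gene symbol because Lgals1 and Lgals3 had moved differently between the genotypes in these same libraries, so the levels and changes of both are given as a description, with no test.

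The 9 libraries were bulk RNA sequencing of sorted CD69+ CD4 single-positive thymocytes bearing the Vα2 and Vβ5 chains of OT-II, a transgenic T cell receptor for a peptide of ovalbumin (OVA). Irradiated hosts received OT-II marrow that was Nr4a1+/+ Nr4a3+/+ (F1 of B6.Cg-Tg(TcraTcrb)425Cbn/J and BoyJ), OT-II marrow labelled Nr4a1-/-Nr4a3-/- (DKO) on C57BL/6, and non-transgenic WT marrow, and were analysed after 4.7 weeks. Hosts were either WT (BoyJ in the labels, though the methods of the study describe F1 hosts), without OVA, or RIPmOVA (C57BL/6 mice with Tg(Ins2-TFRC/OVA)296Wehi, crossed once with BoyJ), in which the rat insulin promoter drives membrane OVA, also in medullary epithelium of the thymus. OT-II cells of WT hosts gave n = 2 libraries, DKO-labelled cells of WT hosts n = 3, OT-II cells of RIPmOVA hosts n = 2 and DKO-labelled cells of RIPmOVA hosts n = 2. Both genotypes thus shared the T cell receptor, the mixed chimeras and the sort apart from its congenic markers. Donor strain and congenic background differed with genotype and cannot be told apart from it. DKO-labelled replicate 3 of WT hosts had no OT-II library of the same replicate number. If the WT hosts were BoyJ, host strain and OVA cannot be told apart. No Cre or inducible allele is named for the donors.

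Values were RPKM, reads on the exons of a gene divided by its exon length and by the library size, from 15520000 to 25050000 recovered reads per library. The targeted gene Nr4a1 averaged 76.0 RPKM in DKO-labelled and 73.4 RPKM in OT-II cells of WT hosts and 258 and 245 RPKM in those of RIPmOVA hosts, and Nr4a3 averaged 0.382 and 0.185 RPKM, then 15.3 and 4.69 RPKM. Neither was lower in DKO-labelled libraries, and a level summed over all exons does not check a deletion of some of them, so the libraries are called DKO-labelled throughout. Bcl2l11, an Nr4a-dependent gene in the study, averaged 1.62 RPKM in DKO-labelled and 6.59 RPKM in OT-II cells of WT hosts. In RIPmOVA hosts it averaged 6.72 and 33.2 RPKM, and it was called lower in DKO-labelled cells in both hosts. Gadd45b, a marker of negative selection in the study, averaged 1.68 and 1.98, then 43.3 and 47.1 RPKM, and was not called between genotypes. The 10 CD4 single-positive thymocyte markers summed to between 1926 and 2318 RPKM in every library, and 0 of them were called in any comparison. Reads on sensory receptor genes, which thymocytes are not known to use, took 1050 and 1497 RPM (reads scaled to library size, without length) in the DKO-labelled libraries of RIPmOVA hosts, 1143 in OT-II replicate 1 and 1053 in DKO-labelled replicate 2 of WT hosts, and 293 to 556 in the other 5. In RIPmOVA hosts this background and the genotype cannot be told apart. In bulk samples fewer cells that use a gene and less RNA per cell cannot be told apart either.

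By mean over the 9 libraries the members spanned from among the most abundant transcripts of these cells to nearly undetected. Lgals9 averaged 105 RPKM, a level exceeded by 0.907% of the 24594 genes. Lgals1 averaged 76.7 RPKM (1.52% of genes above), Lgals3bp 44.2 RPKM (3.47% above) and Lgals8 7.83 RPKM (21.2% above). Lgals3 averaged 0.707 RPKM, with 45.2% of genes above it.

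Lgals1 lies on chromosome 15 at chr15:78926725-78930465 of GRCm38, on the plus strand, 22.3 Mb from Nr4a1 on the same chromosome. In WT hosts it measured 27.9 and 37.3 RPKM in OT-II libraries and 65.2, 51.5 and 68.9 RPKM in DKO-labelled libraries. Its levels in RIPmOVA hosts were 69.4 and 62.4 RPKM in OT-II libraries and 173 and 135 RPKM in DKO-labelled libraries. The OT-II libraries of WT hosts were lowest and the DKO-labelled libraries of RIPmOVA hosts highest, with no overlap with any other group. DKO-labelled libraries of WT hosts and OT-II libraries of RIPmOVA hosts overlapped. Of all genes tested, 41.6% did not overlap between hosts in OT-II cells and 40% in DKO-labelled cells. Between genotypes 59% did not overlap in RIPmOVA hosts and 20.8% in WT hosts. The group means of Lgals1 were 32.6 ± 6.67 RPKM (SD, n = 2) in OT-II and 61.8 ± 9.17 (n = 3) in DKO-labelled cells of WT hosts. In RIPmOVA hosts they were 65.9 ± 4.995 (n = 2) in OT-II and 154 ± 26.6 (n = 2) in DKO-labelled cells.

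The fitted log2 change of Lgals1 between RIPmOVA and WT hosts was 1.02 (SE 0.18) in OT-II cells and 1.31 (SE 0.17) in DKO-labelled cells. Between DKO-labelled and OT-II cells it was 1.21 (SE 0.18) in RIPmOVA hosts and 0.92 (SE 0.17) in WT hosts. The host effect in DKO-labelled cells minus that in OT-II cells was 0.29 (SE 0.25), close to its own error. Lgals1 was therefore higher in RIPmOVA than in WT hosts in both genotypes and higher in DKO-labelled cells in both hosts. Libraries of the 2 genotypes with the same host and replicate number carry the same mouse label, and within each of the 4 chimeras Lgals1 was higher in the DKO-labelled cells, at 2.34 and 1.38 times the OT-II level in WT hosts and 2.49 and 2.16 times in RIPmOVA hosts. Within WT hosts, where the sensory receptor background crossed the genotypes, OT-II replicate 1 and DKO-labelled replicate 2 had the higher background and the lowest Lgals1 of their groups. With both left out, the remaining OT-II library held 37.3 RPKM and the remaining DKO-labelled libraries 65.2 and 68.9 RPKM.

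Lgals3 lies on chromosome 14 at chr14:47367751-47386160, on the plus strand. In WT hosts it measured 0.157 and 0.437 RPKM in OT-II libraries and 0.363, 0.575 and 0.683 RPKM in DKO-labelled libraries. Its levels in RIPmOVA hosts were 1.41 and 2.10 RPKM in OT-II libraries but 0.343 and 0.298 RPKM in DKO-labelled libraries. The 2 OT-II libraries of RIPmOVA hosts stood above the other 7, which lay between 0.157 and 0.683 RPKM. These levels rested on 8 and 33 reads in OT-II and 29, 38 and 56 reads in DKO-labelled libraries of WT hosts, and on 76 and 166 reads in OT-II and 23 and 17 reads in DKO-labelled libraries of RIPmOVA hosts. A floor of 3 reads corresponded to 0.037 to 0.059 RPKM, so Lgals3 was above the floor in all 9 libraries, for counting error only.

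Group means of Lgals3 were 0.297 ± 0.198 RPKM (SD, n = 2) in OT-II and 0.540 ± 0.163 (n = 3) in DKO-labelled cells of WT hosts, and 1.75 ± 0.486 (n = 2) in OT-II and 0.321 ± 0.0318 (n = 2) in DKO-labelled cells of RIPmOVA hosts. On the log2(RPKM + 0.5) scale, which understates changes of a gene this low, the host effect was 1.5 (SE 0.36) in OT-II cells and -0.33 (SE 0.33) in DKO-labelled cells. DKO-labelled minus OT-II was -1.44 (SE 0.36) in RIPmOVA hosts and 0.39 (SE 0.33) in WT hosts, where the libraries of the genotypes overlapped. The host effect in DKO-labelled cells minus that in OT-II cells was -1.83 (SE 0.49). Within the chimeras with RIPmOVA hosts the OT-II cells held 4.11 and 7.03 times the Lgals3 of the DKO-labelled cells, and within those with WT hosts the DKO-labelled cells held 2.31 and 1.32 times the OT-II level. Lgals3 passed the filter (at least 1 RPKM in at least 2 libraries) only through its 2 high libraries, so it had to differ there.

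**Figure D1:**
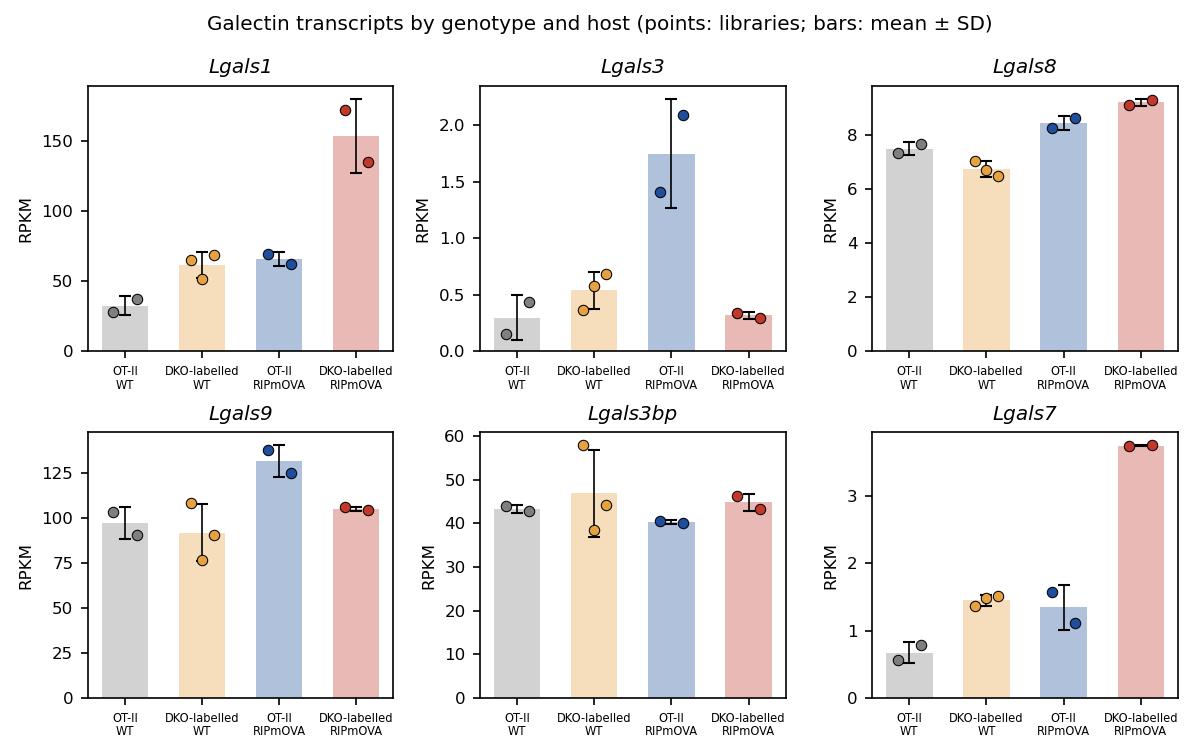
RPKM (y axis, from 0) of the 5 members and of Lgals7 in each group of genotype and host (x axis), with points for libraries and bars for mean ± SD. Lgals1 is highest in DKO-labelled cells of RIPmOVA hosts (154 RPKM) and Lgals3 in OT-II cells of RIPmOVA hosts (1.75 RPKM).

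The RefSeq promoter windows (GRCm38.p6), from 250 bases before to 50 after the start, were found for 4 of the 5 members, all but Lgals1. Those of Lgals3, the member high only in OT-II libraries of RIPmOVA hosts, and of Lgals9, the member with the highest mean level, are shown to let their make-up be compared, with CpG dinucleotides in capitals. Each window surrounds 1 start, while the GENCODE annotation holds 6 transcripts of Lgals3 and 10 of Lgals8, whose outermost starts lie outside these windows. Other starts were not searched. The window of Lgals3 is at chr14:47373610-47373909 on the plus strand and that of Lgals9 at chr11:78984875-78985174 on the minus strand.
Lgals3: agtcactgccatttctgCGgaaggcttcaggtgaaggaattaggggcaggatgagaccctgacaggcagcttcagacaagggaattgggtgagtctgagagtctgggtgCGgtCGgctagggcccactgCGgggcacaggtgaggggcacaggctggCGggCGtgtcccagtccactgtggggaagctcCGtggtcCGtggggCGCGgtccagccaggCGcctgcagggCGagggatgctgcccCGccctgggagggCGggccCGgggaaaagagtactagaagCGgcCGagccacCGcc
Lgals9: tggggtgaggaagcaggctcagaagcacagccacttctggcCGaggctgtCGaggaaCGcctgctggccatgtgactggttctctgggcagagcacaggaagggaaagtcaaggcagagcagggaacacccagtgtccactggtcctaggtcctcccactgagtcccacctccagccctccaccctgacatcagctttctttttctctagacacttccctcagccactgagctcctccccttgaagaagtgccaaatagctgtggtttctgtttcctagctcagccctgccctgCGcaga
The Lgals3 window was richer in CpG (18, with 67% G or C) than that of Lgals9 (4, with 58%), Lgals8 (6, with 51.7%) or Lgals3bp (3, with 55%), and the median over 32851 windows was 7 CpG and 52.7% G or C. Both strands of these windows were searched for the NBRE AAAGGTCA bound by Nr4a receptors, the shorter AGGTCA that it contains, AP-1 TGANTCA, CRE TGACGTCA and EGR GCGNGGGCG. None of these letters were found in any of the 4 windows, and they occur in 1.51%, 16.3%, 7.81%, 1.79% and 5.55% of all windows, in the same order.

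Plotted against each other, Lgals1 and Lgals3 spread along different axes. Over the 9 libraries, which fall into 4 groups and share their depth scaling, Pearson's r of their log2 values was 0.0189, given as a description only.

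**Figure D2:**
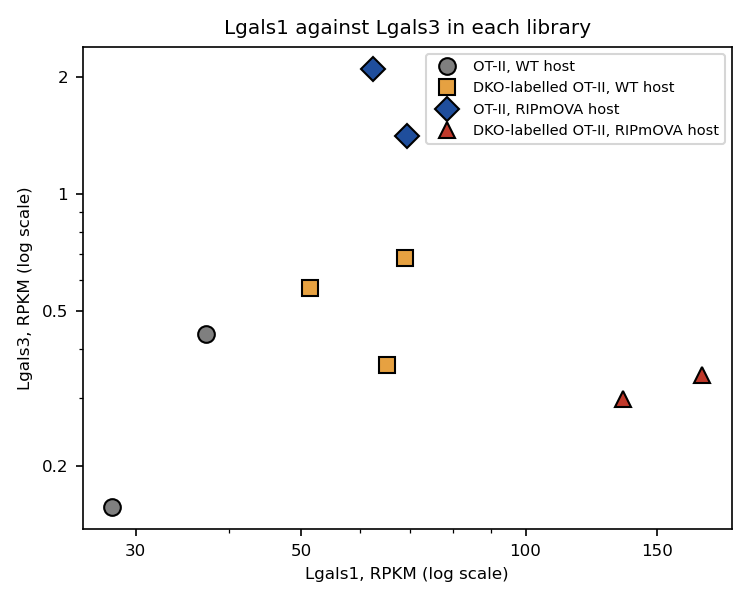
Lgals1 (x axis) against Lgals3 (y axis), both as RPKM on log scales, with 1 point per library and a colour and shape per group. The OT-II libraries of RIPmOVA hosts lie at the top (1.41 and 2.10 RPKM of Lgals3) and the DKO-labelled libraries of RIPmOVA hosts at the right (173 and 135 RPKM of Lgals1).

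The genes whose log2 values over the 9 libraries were most like Lgals1 were Tfrc (transferrin receptor, r = 0.976), Lgals7 (galectin-7, r = 0.97), Atad2 (r = 0.966), Mtbp (r = 0.96) and Pitrm1 (r = 0.955). Their group means had the same outline, Tfrc for example at 7.04, 9.39, 9.74 and 14.0 RPKM in OT-II and DKO-labelled cells of WT hosts and OT-II and DKO-labelled cells of RIPmOVA hosts. Those most like Lgals3 were Akap12 (r = 0.949), Ctsw (cathepsin W, r = 0.949), Fam110a (r = 0.946), Hnrnpll (r = 0.941) and Vps9d1 (r = 0.925). Ctsw averaged 15.3, 16.8, 30.1 and 15.7 RPKM in that order, so it too was high in OT-II cells of RIPmOVA hosts.

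Lgals9, Lgals8 and Lgals3bp were not chosen for their own changes and were read from the fit across 11569 genes, in which calls needed an adjusted p no higher than 0.05 (limma, Benjamini-Hochberg over all genes) with an absolute log2 change of at least 1. Of these 3 genes, 0 were called in the host comparison of OT-II cells, where 1.23% of all genes tested were called, and 0 in that of DKO-labelled cells, where 1.68% were. In RIPmOVA hosts 0 of 3 were called between the genotypes (1.07% of genes called), as were 0 of 3 in WT hosts (0.0605%), and 0 of 3 in the host by genotype interaction (0.0173%). At an unadjusted p under 0.05 the fit held 1657, 2041, 2471, 913 and 1078 genes in these comparisons. Among the 3, only Lgals9 in the host comparison of OT-II cells and Lgals8 in that of DKO-labelled cells were under that limit.

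Lgals9, on the minus strand at chr11:78962974-78984946, measured 103 and 90.7 RPKM for OT-II and 108, 76.5 and 90.5 RPKM for DKO-labelled libraries of WT hosts. Its levels in RIPmOVA hosts were 138 and 125 RPKM for OT-II and 106 and 104 RPKM for DKO-labelled libraries. The OT-II libraries of RIPmOVA hosts were above all others, and the DKO-labelled libraries of WT hosts overlapped both remaining groups. The log2 change between hosts was 0.44 (SE 0.15, limma adjusted p = 0.209) in OT-II cells and 0.21 (SE 0.13, adjusted p = 0.426) in DKO-labelled cells. In RIPmOVA hosts DKO-labelled minus OT-II was -0.32 (SE 0.15, limma adjusted p = 0.245), in WT hosts -0.09 (SE 0.13, adjusted p = 0.93), and the interaction was -0.23 (SE 0.20, adjusted p = 0.699). Lgals9 and Lgals3 shared only the group with the highest mean, and no difference of Lgals9 passed the test.

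Lgals8, whose product recognizes glycans exposed on damaged vesicles, lies on the minus strand at chr13:12439415-12464944. It measured 7.31 and 7.65 RPKM for OT-II and 7.03, 6.68 and 6.47 RPKM for DKO-labelled libraries of WT hosts, and 8.26 and 8.61 RPKM for OT-II and 9.11 and 9.30 RPKM for DKO-labelled libraries of RIPmOVA hosts. The 4 groups did not overlap, and DKO-labelled cells were lowest in WT hosts and highest in RIPmOVA hosts. Of the 3 tested members, libraries of Lgals8 were the ones without overlap in all 4 pairwise comparisons, and among all genes 41.6% did not overlap between hosts in OT-II cells, 40% between hosts in DKO-labelled cells, 59% between the genotypes within RIPmOVA hosts and 20.8% within WT hosts. In DKO-labelled cells its log2 host effect was 0.43 (SE 0.09, limma adjusted p = 0.0399), within the limit for the adjusted p, like 3.35% of all genes, but short of that for size. The host effect in OT-II cells was 0.16 (SE 0.10, limma adjusted p = 0.52), and the interaction was 0.26 (SE 0.14, adjusted p = 0.551). DKO-labelled minus OT-II was 0.12 (limma adjusted p = 0.517) in RIPmOVA hosts and -0.14 (adjusted p = 0.768) in WT hosts. Lgals8 shares 155 exon bases with Heatr1 on the other strand, at 8.21 to 19.5 RPKM, and whether counting used the strand is not given in the sources used here.

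Lgals3bp, on the minus strand at chr11:118392751-118402092, measured 44.1 and 42.7 RPKM for OT-II and 58.0, 38.5 and 44.2 RPKM for DKO-labelled libraries of WT hosts. Its levels in RIPmOVA hosts were 40.6 and 39.996 RPKM for OT-II and 46.2 and 43.4 RPKM for DKO-labelled libraries. DKO-labelled libraries of WT hosts covered the range of the other groups. Its log2 changes lay between -0.11 (SE 0.16, limma adjusted p = 0.806) for the host in OT-II cells and 0.15 (SE 0.16, adjusted p = 0.616) for the genotype in RIPmOVA hosts.

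**Figure D3:**
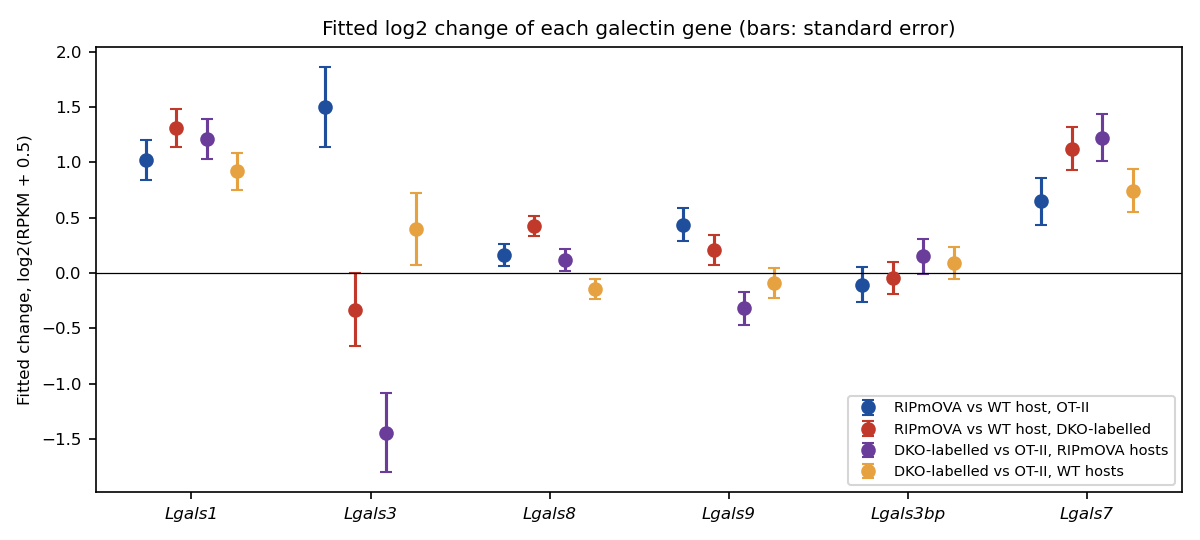
Fitted change on the log2(RPKM + 0.5) scale (y axis) of each galectin gene (x axis) in the 4 pairwise comparisons, with bars for the standard error. Lgals1 lies above 0 in all 4, Lgals3 at 1.5 and -1.44 in opposite comparisons, and Lgals3bp within -0.11 to 0.15.

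RPKM is per length, and the lengths in the table exceed the exons of the GENCODE annotation unequally, at 9464 against 3688 bases for Lgals8, 3273 against 1858 for Lgals3, 3269 against 2137 for Lgals9 and 1176 against 903 for Lgals1, so levels and shares between members depend on the length used. With the deposited lengths the 5 genes summed to between 174 and 334 RPKM. Lgals1 made up 15.3% and 20.9% of the sum for OT-II and 27.3% to 32.7% for DKO-labelled libraries of WT hosts, and 27.0% and 26.2% for OT-II and 51.7% and 46.2% for DKO-labelled libraries of RIPmOVA hosts. Lgals9 made up 50.7% to 56.5% in the 4 OT-II libraries, 42.9% to 45.3% in DKO-labelled libraries of WT hosts and 31.7% and 35.7% in those of RIPmOVA hosts. Lgals1 thus passed Lgals9 only in the DKO-labelled libraries of RIPmOVA hosts, also with the annotated lengths, which put it at 46.8% and 41.3% and Lgals9 at 33.7% and 37.5% there. Lgals3 made up at most 0.879% of the sum in all 9 libraries.

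**Figure D4:**
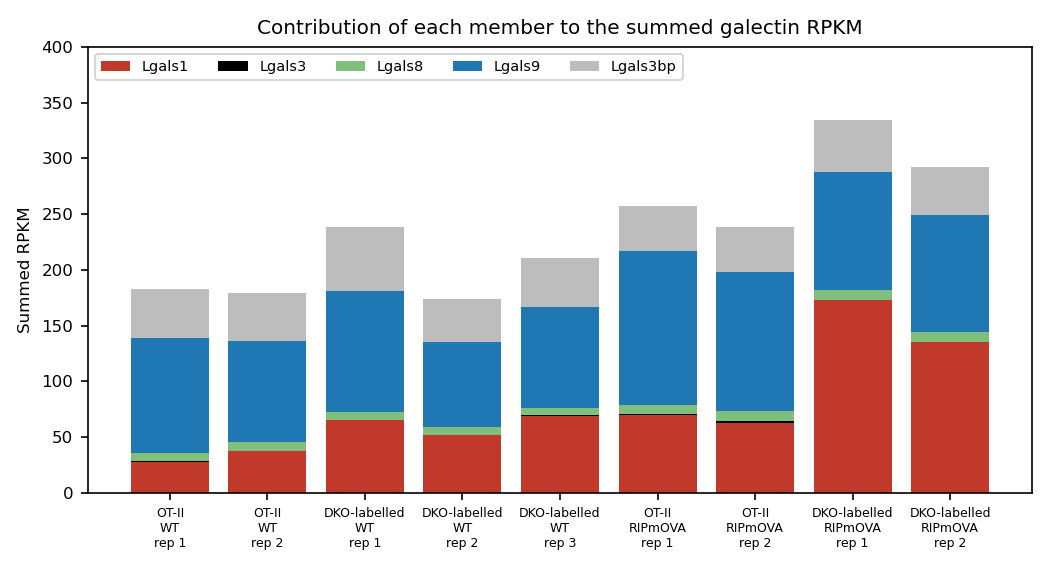
Summed RPKM of the 5 members (y axis, from 0) in each library (x axis), stacked by gene. The DKO-labelled libraries of RIPmOVA hosts are tallest (334 and 292 RPKM), with Lgals1 at 51.7% and 46.2% of the bar.

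Of 7 other galectin and galectin-related genes 4 passed the filter. Galectin-7, encoded by Lgals7 at chr7:28863853-28866284 and known from stratified epithelium, was the one whose changes were called. It measured 0.559 and 0.786 RPKM for OT-II and 1.36, 1.49 and 1.51 RPKM for DKO-labelled libraries of WT hosts, and 1.58 and 1.11 RPKM for OT-II and 3.74 and 3.75 RPKM for DKO-labelled libraries of RIPmOVA hosts, on 11 to 97 reads. Like Lgals1 it was lowest in OT-II cells of WT hosts and highest in DKO-labelled cells of RIPmOVA hosts, and the other 2 groups overlapped. Its log2 change was 1.12 (SE 0.19, limma adjusted p = 0.0165) between hosts in DKO-labelled cells and 1.22 (SE 0.21, adjusted p = 0.0246) between genotypes in RIPmOVA hosts. The second call was lost with the chimera as a block (limma adjusted p = 0.0847), and both were lost without either DKO-labelled library of RIPmOVA hosts (adjusted p = 0.0885 to 0.145). The call between hosts was also lost without DKO-labelled replicate 1 or 3 of WT hosts (limma adjusted p = 0.0715 and 0.0658), and that between genotypes without OT-II replicate 1 or 2 of RIPmOVA hosts (adjusted p = 0.0841 and 0.145). The host effect in OT-II cells was 0.65 (limma adjusted p = 0.198) and the genotype effect in WT hosts 0.74 (adjusted p = 0.301). Lgals4 and Lgals6, near-identical neighbours whose reads cannot be assigned with certainty, averaged 4.24 to 5.58 and 1.22 to 1.74 RPKM over the groups, and Grifin averaged 1.41 to 1.99 RPKM. Lgals2, Lgals12 and Lgalsl did not pass the filter.

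Of 18 glycoproteins known as galectin counter-receptors 17 were tested. In OT-II cells 1 was called between hosts, where 1.23% of all genes were, the costimulatory receptor Tnfrsf9 (4-1BB), a known partner of galectin-9, with a log2 change of 4.28 (limma adjusted p = 0.000789), from 3.47 and 6.28 RPKM to 90.5 and 111 RPKM. In DKO-labelled cells 3 rose and 1 fell, against 1.68% of all genes called. Those that rose were Tnfrsf9 (2.82, limma adjusted p = 0.00183) and the inhibitory receptors Ctla4 (2.63, adjusted p = 0.00471) and Lag3 (2.12, adjusted p = 0.0193). Lag3, a counter-receptor of galectin-3, averaged 0.301 RPKM in DKO-labelled cells of WT hosts and 3.04 RPKM in those of RIPmOVA hosts, without which it would not have passed the filter. The one that fell was Cd7, a glycoprotein through which galectin-1 acts on T cells, with a log2 change of -2.13 (limma adjusted p = 0.00258), from 46.2 to 61.0 RPKM down to 8.30 and 17.4 RPKM. Cd7 was thus lowest in the group in which Lgals1 was highest.

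Between genotypes in RIPmOVA hosts Tnfrsf9 was the only counter-receptor called (-3.49, limma adjusted p = 0.00194), and in WT hosts and in the interaction 0 of 17 were. Without DKO-labelled replicate 2 of RIPmOVA hosts 2 were called lower between genotypes in RIPmOVA hosts and 1 in the interaction. In WT hosts 1 was called lower without OT-II replicate 2 of WT hosts or without either DKO-labelled library of RIPmOVA hosts. The abundant galectin-1 counter-receptors Ptprc (CD45) and Spn (CD43) had log2 host effects of 0.14 and -0.12 in OT-II cells and 0.26 and -0.18 in DKO-labelled cells, none of them called. The median log2 change of the 17 was 0.10 between hosts in OT-II cells and 0.14 in DKO-labelled cells, beside -0.02 and 0.03 over all genes tested.

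Of 17 enzymes that build, branch or cap the glycans galectins bind 15 were tested, and 0 were called by limma in any of the 5 comparisons, while 5, 3, 4, 1 and 2 had an unadjusted p under 0.05. Their median log2 change was 0.20 between hosts in OT-II cells and -0.07 in DKO-labelled cells. Mgat5, which makes the branch that galectin-3 prefers, had the highest log2 host effect in OT-II cells (0.90), and it averaged 2.11, 2.27, 4.43 and 2.94 RPKM in OT-II and DKO-labelled cells of WT hosts and OT-II and DKO-labelled cells of RIPmOVA hosts. St6gal1, whose sialic acid caps block galectin-1 binding, had log2 host effects of 0.31 (OT-II) and -0.35 (DKO-labelled). Of 8 cytosolic partners of galectins in membrane repair and autophagy 5 were tested and 0 called by limma in any comparison, with 0, 0, 1, 0 and 0 under an unadjusted p of 0.05.

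Lgals1 and Lgals3 are often high together with S100, annexin and cytoskeletal genes in activated and memory T cells, and a list of 16 such genes, all tested, was read for comparison. Between hosts 3 rose in OT-II cells, where 1.23% of all genes tested were called, S100a4 (3.99), S100a6 (2.67) and Lmna (1.28). In DKO-labelled cells, with 1.68% of genes called, 4 rose, Lmna (1.95), S100a6 (1.86), Anxa2 (1.28) and Capg (1.05). Only S100a6 and Lmna were called in both. Of the 16 genes, 9 had a log2 change above 0 in OT-II cells and 10 in DKO-labelled cells. The median log2 change of the list was 0.06 and 0.21, beside -0.02 and 0.03 over all genes tested. The lowest values were those of Emp3 (-0.92) in OT-II cells and Crip1 (-0.78) in DKO-labelled cells, neither called. Between genotypes in RIPmOVA hosts S100a4 fell (-3.67) and Lmna rose (1.42), where 1.07% of genes were called. S100a4 would not have passed the filter without its 2 high OT-II libraries of RIPmOVA hosts, which favoured its call. S100a4, a calcium-binding protein, averaged 0.626, 0.272, 15.2 and 0.708 RPKM in OT-II and DKO-labelled cells of WT hosts and OT-II and DKO-labelled cells of RIPmOVA hosts, high in the group in which Lgals3 was high. Lmna, which encodes lamin A and C of the nuclear envelope, averaged 5.70, 10.03, 14.7 and 40.1 RPKM in that order, the order of Lgals1. The S100a4 call between genotypes was lost without either OT-II library of RIPmOVA hosts, both it and that of Lmna were lost with a covariate for the sensory receptor background, and the 3 host calls in OT-II cells became 1 without OT-II replicate 2 of RIPmOVA hosts and 0 when only the libraries compared were fitted. The 4 host calls in DKO-labelled cells became 2 without DKO-labelled replicate 1 of WT hosts and 1 without DKO-labelled replicate 1 of RIPmOVA hosts.

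**Figure D5:**
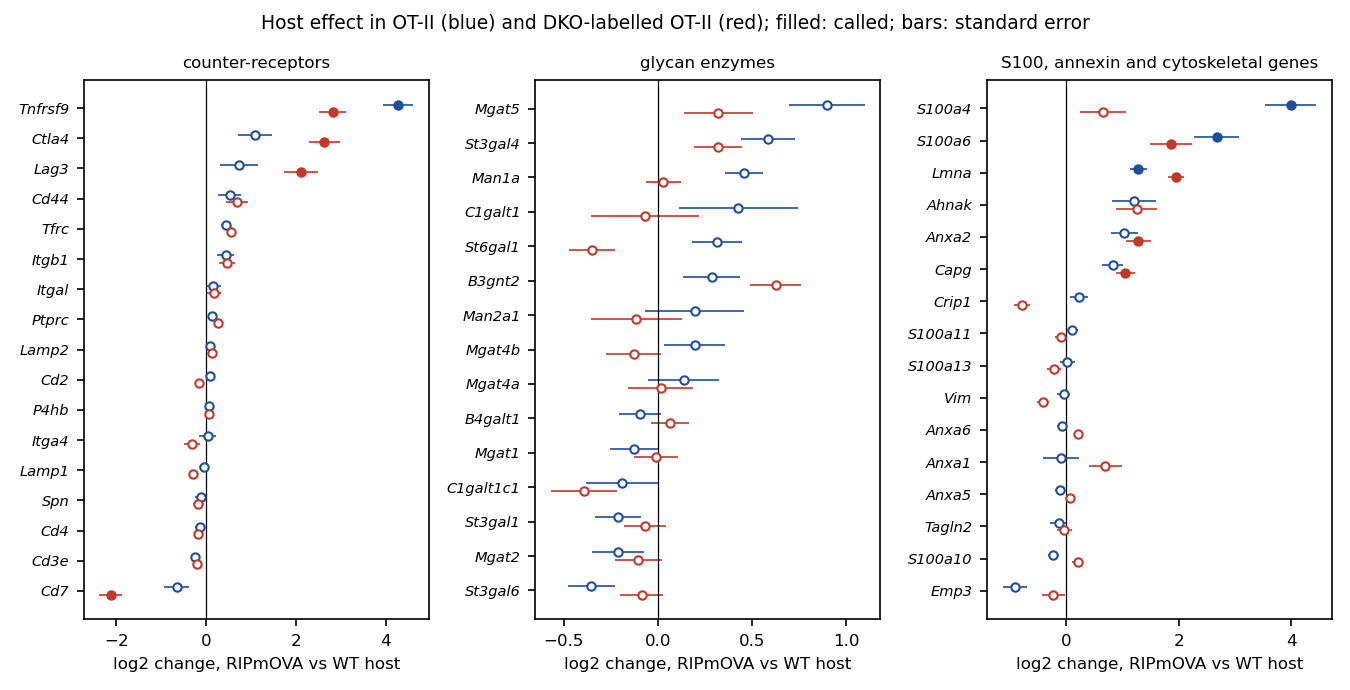
Log2 change between RIPmOVA and WT hosts (x axes) of the tested counter-receptors, glycan enzymes and S100, annexin and cytoskeletal genes (y axes), in OT-II cells (blue) and DKO-labelled cells (red), filled where called, with bars for the standard error. Tnfrsf9 (4.28) and S100a4 (3.99) reach farthest in OT-II cells, and none of the glycan enzymes is filled.

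Macrophages and dendritic cells carry galectin-3 at high levels, so markers of other cell types were set beside Lgals3. All 12 macrophage and monocyte markers together summed to 62.2 to 103 RPKM for OT-II and 58.2 to 71.0 RPKM for DKO-labelled libraries of WT hosts, 91.3 to 94.5 RPKM for OT-II and 98.9 to 106 RPKM for DKO-labelled libraries of RIPmOVA hosts, and 0 of the 7 tested were called. Most of each sum was Ctss, which encodes a protease that lymphocytes can also express and averaged 57.1 to 92.5 RPKM over the groups. Lyz2 (lysozyme) measured 8.44 and 18.7 RPKM in OT-II libraries of RIPmOVA hosts and 0.879 to 7.54 RPKM in the other 7. The complement genes C1qa, C1qb and C1qc also had their highest group means in OT-II cells of RIPmOVA hosts, at 2.41, 2.55 and 1.27 RPKM, beside at most 1.48, 0.912 and 0.760 RPKM in the other groups. Csf1r and Adgre1 were at 0.043 to 0.578 and 0.114 to 0.475 RPKM over all libraries and had their highest group means in DKO-labelled cells of RIPmOVA hosts.

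The 9 dendritic cell markers summed to 41.8 to 45.7 RPKM for OT-II and 28.3 to 34.6 RPKM for DKO-labelled libraries of RIPmOVA hosts, and to 9.57 to 19.4 RPKM in WT hosts, with H2-Ab1 and Cd74 called between hosts in OT-II cells. H2-Ab1 passed the filter only through the 2 OT-II libraries of RIPmOVA hosts, so like Lgals3 it had to differ there. The 5 innate-like T and NK markers summed to 17.1 to 22.8 RPKM in OT-II libraries of RIPmOVA hosts and 1.51 to 4.84 RPKM in all others. Most of the former sum was Nkg7 (mean 17.1 RPKM), and Gzma was also highest in that group (2.40 RPKM). Zbtb16, Klrb1c and Ncr1 had their lowest group means there, at 0.13, 0.14 and 0.15 RPKM. Nkg7 was called higher between hosts in OT-II cells and lower in DKO-labelled than in OT-II cells of RIPmOVA hosts. None of the markers in these 3 lists was at 0 in all libraries of a group. Lyz2, the C1q genes, Itgam, H2-Ab1, H2-Aa, H2-Eb1, Cd74, Gzma and Nkg7 thus had their highest means where Lgals3 did. Csf1r, Adgre1, Fcgr3, Mrc1, Mertk, Ctss, Flt3, Xcr1, Zbtb46, Siglech, Zbtb16, Klrb1c and Ncr1 were highest in DKO-labelled cells of RIPmOVA hosts. Cd68 and Itgax were highest in WT hosts. The part of these genes in the level of Lgals3 was not tested.

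The 6 markers of dividing cells summed to 2.20 to 3.41 RPKM for OT-II and 6.63 to 13.8 RPKM for DKO-labelled libraries of WT hosts, and 4.02 to 10.7 RPKM for OT-II and 8.33 to 16.2 RPKM for DKO-labelled libraries of RIPmOVA hosts, with 0 of the 5 tested called. Their lowest libraries were, as for Lgals1, OT-II cells of WT hosts, while the other 3 groups overlapped. The 6 regulatory T cell markers summed to 54.6 to 63.9 and 27.4 to 32.3 RPKM in OT-II and DKO-labelled libraries of WT hosts and to 152 to 162 and 94.2 to 132 RPKM in those of RIPmOVA hosts. Most of each sum was Tnfrsf18, which averaged 44.8, 24.1, 101 and 68.2 RPKM in the same order of groups. Of these 6, 4 were called higher between hosts in OT-II cells and 5 in DKO-labelled cells, beside 1.23% and 1.68% of all genes. Foxp3, the defining factor of that lineage, averaged 0.391, 0.0517, 2.61 and 0.0845 RPKM in the same order of groups, high where Lgals3 was high, and was called lower in DKO-labelled than in OT-II cells of RIPmOVA hosts, having passed the filter only through the OT-II libraries of those hosts. The 11 markers of thymic epithelium and stroma summed to 10.1 to 13.6 RPKM in the DKO-labelled libraries of RIPmOVA hosts, where Lgals1 and Lgals7 were highest, and to 3.12 to 7.86 RPKM in the other 7. Most of the higher sum was Epcam, at 5.78 and 10.2 RPKM, and Krt8, the next highest, averaged 0.855 RPKM there. The same libraries had 1050 and 1497 RPM of sensory receptor background. Epcam, the only marker of this list that was tested, was called higher between hosts in DKO-labelled cells. The part of these markers in the galectin levels was not tested.

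The genes next to Lgals1 (Pdxp at 9.76 to 17.4 RPKM, Nol12 at 6.01 to 7.11 RPKM) and Lgals3 (Mapk1ip1l at 8.96 to 11.8 RPKM, Dlgap5 at 0.625 to 1.63 RPKM) were not called in any comparison. No gene overlaps Lgals1, Lgals3, Lgals9 or Lgals3bp in the annotation. Lgals1 has processed pseudogenes that are not in the table, and whether reads were shared with them was not tested.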

How the data were processed

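Per the methods of the study, the authors sorted thymocytes from mixed chimeras, made cDNA with a SMART-seq v4 low-input kit, sequenced it with paired ends, aligned reads with STAR to mm10 (GENCODE vM17), dropped the duplicates that Picard found, and counted the rest on exons of each Entrez gene. The deposited values are RPKM, rounded by the authors to 3 decimals, and the authors' own differential test was DESeq2. The version of STAR is not given in the sources used here.

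Genes with at least 1 RPKM in at least 2 libraries (11569 of 24594) were transformed as log2(RPKM + 0.5), and limma 3.58.1 (R 4.3.3) fitted 1 mean per group to the 9 libraries (eBayes with an intensity trend, two-sided, Benjamini-Hochberg). Called genes had an adjusted p of 0.05 or less and an absolute log2 change of at least 1. Read numbers came from the spacing of low RPKM values, of which 100% were whole within 0.1 read in every library. On 5 simulated sets of 11569 genes with 200 changed between the genotypes of RIPmOVA hosts, the fit called 87.4% of the changed genes. Of its calls, 2.9% were on unchanged genes. The planted log2 changes were all larger than the limit of 1. Recovery of smaller changes than those planted was not tested. These include all changes of Lgals8, Lgals9 and Lgals3bp and the called changes of Lgals7.

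The members and lists were chosen with earlier results of these data known. Genes named from a list were those called and some of the highest and lowest changes, with the genes whose known role concerns a member. Positions come from GENCODE vM21 (GRCm38) and promoters from RefSeq. OT-II and DKO-labelled cells with the same host and replicate number carry 1 mouse label in common, from which the pairing comes, and their deviations from the group means correlated at 0.01 and -0.24 in WT hosts and -0.08 and -0.08 in RIPmOVA hosts. The samples are labelled as biological replicates. Python 3.11.15 with numpy 2.4.6, pandas 2.3.3 and matplotlib 3.10.9 was used for tables and plots.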

Additional observations from a re-analysis of the deposited data

Results flagged for a closer look

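The log2 host effect of Lgals3 (RIPmOVA against WT hosts) had opposite signs in the genotypes, at 1.5 in OT-II cells and -0.33 in DKO-labelled cells. The value in DKO-labelled cells was close to its SE of 0.33. Each library of the RIPmOVA groups lay outside the range of its WT-host group. Of all genes tested, 41.6% did not overlap between hosts in OT-II cells and 40% in DKO-labelled cells. The nearest DKO-labelled libraries of the 2 hosts, at 0.343 and 0.363 RPKM, held 23 and 29 reads. The difference of -1.83 was not tested, because Lgals3 was chosen for this pattern. Groups of 2 or 3 libraries were too small to look for single samples that stood apart.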

How the results depend on the processing

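Lgals1 and Lgals3 kept their directions in each comparison that an alternative run fitted for them. Both genes were chosen for this pattern, so this is a description only. Some runs, such as that without the intensity trend, cannot change a fitted log2 change. On the log2 scale the size of the Lgals3 values followed the pseudocount. With 0.1 they were 2.29 for the host in OT-II cells, -2.12 and 0.75 for the genotype in RIPmOVA and WT hosts and -2.87 for the interaction, and with 1 they were 1.08, -1.05 (genotype in RIPmOVA hosts) and -1.30 (interaction). Quantile normalization gave Lgals3 -0.87 for the host in DKO-labelled cells, -1.99 for the genotype in RIPmOVA hosts and -2.18 for the interaction. Median-of-ratios rescaling moved the median of all genes to -0.17 for the genotype in RIPmOVA hosts, -0.134 for the host in DKO-labelled cells and -0.187 for the interaction. It gave Lgals1 0.97 for that genotype comparison and 0.0545 for the interaction, and it turned the direction of Lgals8 (-0.10) and Lgals3bp (-0.081) in that comparison and of Lgals3bp in the interaction (-0.17), none of them called. A covariate for the sensory receptor background gave Lgals1 1.55 (host, DKO-labelled), 1.56 (genotype, RIPmOVA hosts) and 0.69 (interaction), and Lgals3 -1.07 (genotype, RIPmOVA hosts) and -1.43 (interaction). A call on adjusted p alone added 1 member, Lgals8, between hosts in DKO-labelled cells. The cause of these shifts was not tested. Chosen after seeing the data, leaving out both libraries from WT hosts with high background gave Lgals3 0.11 for the genotype in WT hosts and -1.55 for the interaction, and turned Lgals9 in WT hosts to 0.12, not called.

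With the chimera as a replicate block, Lgals1 was 1.21 and 0.83 for the genotype in RIPmOVA and WT hosts and Lgals3 -1.44 and 0.30, and the block changed no call among Lgals8, Lgals9 and Lgals3bp but ended that of Lgals7 between genotypes. Host comparisons could not be paired, since each chimera had 1 host. Leaving out each library in turn, with a lone library assumed to vary like the others, kept Lgals1 at 0.81 to 1.22 (host, OT-II), 1.13 to 1.49 (host, DKO-labelled), 1.03 to 1.39 (genotype, RIPmOVA hosts) and 0.71 to 1.12 (genotype, WT hosts), and its interaction at 0.08 to 0.50. The same gave Lgals3 1.25 to 1.76, -0.46 to -0.23, -1.66 to -1.22 and 0.14 to 0.65, and -2.09 to -1.58 for the interaction. Of 816 recomputed counts of list calls 22 moved by over 1.5 times, spread over 13 combinations of list, direction and comparison. Most of the 816 were for combinations with 0 calls in the main fit. The Lgals7 calls were also lost with no filter (adjusted p = 0.0556 for both, limma), with the covariate (0.0851 between hosts and 0.21 between genotypes) and, between genotypes, with quantile normalization (0.0573), while a pseudocount of 1 and the rescaling took its host effect in DKO-labelled cells to 0.95 and 0.97, under the limit on size. A filter at RPKM 5 left no value for Lgals3 and Lgals7. Among the 5 members depth limits Lgals3 most, at 8 to 166 reads.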
